A study of Homo sapiens with 35 samples.

Results

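ATF4 and 9 genes that act with it or downstream of it in the integrated stress response were followed through recovery from proteasome inhibition. The 10 genes were ATF4, ATF3, ATF5, DDIT3, TRIB3, CHAC1, SESN2, DDIT4, CEBPB and CEBPG. They were taken by symbol from the protein-coding entries of the deposited table, in which all 10 had a match, beside 19665 protein-coding entries in all. Of these entries 17999 had a count in at least 1 library and were tested, the 10 genes among them. Fewer, 12340, passed filterByExpr, edgeR's filter for low counts. The shares of all entries given below thus include entries with few counts, for which a call is harder to reach. RNA of 8 of the 10 genes was lower on day 1 after the drug than before it (27.3% of all tested entries were lower), and RNA of 9 was lower on day 2 (24.4% of all), by 2.78-fold (ATF5) to 29.9-fold (CHAC1). The later course differed among them. ATF4 itself was back near its starting level on day 6 but was below it again on days 8 and 10. ATF5 stayed low to the end, and DDIT4 ended above its starting level.

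In the integrated stress response, the kinases EIF2AK1 to EIF2AK4 phosphorylate the translation initiation factor eIF2, which lowers protein synthesis in general while the mRNA of ATF4 is translated more. ATF4 is a bZIP transcription factor that binds DNA as a dimer, often with a C/EBP protein, and turns on genes of amino acid supply, redox balance and, when stress persists, cell death. Myeloma cells, which secrete large amounts of immunoglobulin, are known for a high load on the endoplasmic reticulum and for their sensitivity to proteasome inhibitors. The libraries measure RNA, so the part of this response that acts on translation is not seen in them.

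RPMI-8226 is an established human multiple myeloma cell line. Cultures received 750 nM carfilzomib, an irreversible proteasome inhibitor, for 1 h, were washed, and were grown on without drug. RNA was sequenced from 5 subcultures on each of 7 days, namely day 0 and days 1, 2, 4, 6, 8 and 10, which gave 35 libraries with 6519392 to 10962890 counts each. The labels of day 0 list carfilzomib as well, but by the study's methods these samples were taken before the drug was added. All subcultures were split from 1 expanded culture of the line, with no genetic change, so p-values measure the spread between subcultures. From day 2 onwards cells were harvested just before a change of medium, and cell density was set anew on days 6 and 8. On day 0 density had been set with fresh medium and cells left to equilibrate before the drug. Any part of medium age in the differences from day 0 was not tested. No untreated cultures of the later days are among the samples, so time after the pulse and time in culture cannot be told apart. Fewer cells of a type and less RNA per cell cannot be told apart in such bulk RNA either.

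The labelled cell type was checked against marker genes. The 9 measured plasma cell markers summed to between 2910 and 8820 CPM in every library (CPM is the usual unit of counts relative to the library size, here after TMM normalization), and their lowest sums were on day 1. T cell markers summed to at most 5.24 CPM, myeloid markers to at most 15.8 CPM, fibroblast markers to at most 1.58 CPM and erythroid markers to at most 5.17 CPM. The plasma cell markers summed to 6600 to 7510 CPM on day 0, 2910 to 3250 CPM on day 1 and 4780 to 5630 CPM on day 2. From day 1 to day 2, when 9 of the 10 genes fell further, 5 of the 9 markers rose and 2 fell, and the part of the markers' change in the fall of the genes was not tested.

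Promoter sequences of these genes are shown for 4 members, since the known binding elements of ATF4 and of C/EBP factors are short and were searched in all 10. RefSeq windows of 300 bases (250 before and 50 after the annotated start, GRCh38.p14) were available for all 10 members and for 14458 promoters in all. TGATGNAA, the core of the C/EBP-ATF response element, was present on either strand in 2 members, ATF3 and CHAC1, and in 2.50% of all promoters. TTGCNNAA, a C/EBP core that overlaps the palindrome TTGCGCAA, was present in SESN2 and ATF5 and in 8.33% of all promoters. None of the 10 windows held TGACGTCA (2.59% of all promoters), ATTGCATCA (0.173%, which contains a match of TGATGNAA on the other strand) or TTGCGCAA (0.194%). ATTGCATCA was searched as a known element of the DDIT3 promoter. Sites outside the windows were not searched, so the lack of a match does not mean that a gene lacks the element. Matching letters are given in capitals, and the sequences are those of the plus strand. Positions are counted from the RefSeq start that the window was built on, and for the 7 members with several starts only the first one listed was searched. The ATF3 match begins 191 bases before that start (212565407), the CHAC1 match, on the minus strand, 209 bases before it (40953471), the SESN2 match 221 bases before it (28259518), and the ATF5 match, on the minus strand, 104 bases before it (49928906). The gene starts of GENCODE given further on differ for 3 of these genes: counted from them, the ATF3 match lies 118 bases before the start, and those of CHAC1 and ATF5 lie 300 and 100 bases after it, inside the annotated gene. A match in such a window is a description of the sequence and says nothing of binding in these cells.
CHAC1 (chr15:40953251-40953280): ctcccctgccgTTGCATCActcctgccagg
ATF3 (chr1:212565157-212565333): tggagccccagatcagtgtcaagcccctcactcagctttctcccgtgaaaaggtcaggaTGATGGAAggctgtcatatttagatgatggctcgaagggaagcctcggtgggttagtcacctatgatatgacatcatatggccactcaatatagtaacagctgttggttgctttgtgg
SESN2 (chr1:28259268-28259517): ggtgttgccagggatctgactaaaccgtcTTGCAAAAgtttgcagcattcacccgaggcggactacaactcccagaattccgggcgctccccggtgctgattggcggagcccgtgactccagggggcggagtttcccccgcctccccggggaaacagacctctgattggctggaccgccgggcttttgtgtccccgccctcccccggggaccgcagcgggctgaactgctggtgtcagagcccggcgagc
ATF5 (chr19:49928791-49928820): ctggcaggaaaTTCTGCAAgcaaggaaagg

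ATF4 (chr22:39519695-39522683, plus strand, GRCh38) had the highest level of the 10 genes before the drug. Its level in the 5 libraries of day 0 was 910, 834, 900, 845 and 790 CPM, with a mean of 856 ± 49.6 CPM (SD, n = 5). On day 1 it was 297, 287, 283, 318 and 282 CPM, and on day 2 it was 242, 225, 214, 224 and 222 CPM. Every library of days 1 and 2 was below every library of day 0, and every library of day 2 was below those of day 1. The log2 fold change against day 0 was -1.54 ± 0.055 (SE) on day 1 and -1.93 ± 0.056 on day 2, which is a 3.80-fold lower level on day 2 (Q = 3.2e-28, the p of edgeR's quasi-likelihood test with Benjamini-Hochberg adjustment over all 17999 entries). ATF4 RNA then rose to 519 ± 35.8 CPM on day 4 and to 773, 852, 817, 783 and 882 CPM on day 6. The libraries of day 6 overlapped those of day 0, and the log2 difference of -0.06 had a 95% interval from -0.17 to 0.05. On day 8 the level was 552, 637, 569, 569 and 608 CPM, below every library of day 6 (log2 fold change -0.48 ± 0.053, Q = 4.3e-08). On day 10 it was 667, 726, 634, 692 and 617 CPM, which overlapped the day 8 range (log2 fold change 0.18 ± 0.054 against day 8, Q = 0.019). Against day 0, ATF4 was lower on day 8 (-0.54, Q = 3.6e-11) and on day 10 (-0.36, Q = 6.4e-07), without overlap on either day. From lowest to highest mean, the order was day 2, day 1, day 4, day 8, day 10, day 6 and day 0, and the neighbours whose libraries overlapped were days 4 and 8, days 8 and 10, and days 6 and 0.

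ATF3 (chr1:212565334-212620777), a bZIP factor that many kinds of stress induce and that ATF4 is known to activate, fell further than ATF4. Its 5 libraries of day 0 had 132, 94.3, 128, 99.4 and 87.0 CPM, and those of day 2 had 6.17, 4.08, 5.41, 3.86 and 5.03 CPM. The difference was 22.0-fold (log2 fold change -4.46 ± 0.15, Q = 1.8e-26), with no overlap. ATF3 rose to 27.4 ± 1.36 CPM on day 6, which was 25.3% of its day 0 mean. On day 8 its libraries had 22.7, 27.4, 19.4, 18.3 and 20.7 CPM, which overlapped those of day 6 (log2 fold change -0.33, Q = 0.20), and on day 10 they had 14.9, 16.1, 16.6, 16.8 and 17.0 CPM, below all of day 8. The fall from day 8 to day 10 was -0.42 ± 0.14 on the log2 scale (Q = 0.044). That call was lost without any single library of day 10, without replicate 1, 2 or 5 of day 8 and with library sizes left without factors, with Q between 0.052 and 0.20.

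ATF5 (chr19:49928702-49933935), a bZIP factor whose translation eIF2 phosphorylation also controls, fell later than the other genes that were lower on day 2. Its libraries had 78.5, 92.8, 88.8, 82.8 and 77.2 CPM on day 0 and 75.7, 70.8, 78.9, 85.9 and 71.9 CPM on day 1. These ranges overlapped, and the log2 difference of -0.13 did not pass the threshold (Q = 0.084), although it passed at values of -0.16 to -0.17 with RLE size factors, with filterByExpr and with DESeq2, and at -0.18 without replicate 1 or 5 of day 0 or replicate 4 of day 1. On day 2 the level was 32.0, 30.3, 28.5, 30.4 and 30.2 CPM, a 2.78-fold lower level than on day 0. ATF5 was the only 1 of the 10 to fall again from day 2 to day 4, to 18.0 ± 2.16 CPM (log2 fold change -0.75 ± 0.078, Q = 3.5e-10). From day 4 to day 10 its daily means stayed between 18.0 and 20.7 CPM, at 21.4% to 24.6% of day 0. It showed neither the rise of the other genes to day 6 nor a dip on day 8 (day 8 against day 6, 0.08, 95% interval -0.08 to 0.25).

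CEBPB (chr20:50190830-50192668) and CEBPG (chr19:33373685-33382686) encode C/EBP proteins that can pair with ATF4 on DNA. CEBPB had 70.7, 62.8, 56.3, 53.3 and 57.6 CPM on day 0 and 16.4, 18.0, 14.0, 13.9 and 14.3 CPM on day 2 (3.92-fold lower, Q = 6.8e-16). CEBPG had 90.6, 94.6, 102, 91.6 and 88.9 CPM on day 0 and 23.0, 24.6, 24.3, 25.4 and 23.4 CPM on day 2 (3.87-fold lower, Q = 4.8e-25). The libraries of day 2 lay below those of day 0 for both genes, and both log2 fold changes, -1.97 and -1.95, were close to that of ATF4. CEBPB returned to 73.9% of its day 0 mean on day 6, and CEBPG to 56.6%. CEBPG had 51.4, 52.9, 52.0, 48.9 and 59.6 CPM on day 6, 33.4, 40.8, 40.6, 34.1 and 38.5 CPM on day 8 and 56.1, 55.4, 52.8, 48.0 and 53.6 CPM on day 10. CEBPG on day 8 thus lay below every library of the days on either side of it. CEBPB was uneven on day 8, with 31.8, 41.2, 24.8, 20.6 and 40.0 CPM, and its libraries overlapped those of day 6. Its day 8 difference from day 6 (-0.49 ± 0.13, Q = 0.029) was no longer called without replicate 3 (-0.42, Q = 0.12) or replicate 4 (-0.36, Q = 0.15) of day 8, without replicate 1, 2 or 5 of day 6 (Q from 0.062 to 0.081), or in a fit of those 2 days alone (Q = 0.12).

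DDIT3 (chr12:57516588-57521737, minus strand), which encodes CHOP, a factor linked to cell death under lasting stress, had 67.8, 57.5, 73.1, 51.9 and 53.9 CPM on day 0. On day 2 it had 6.32, 4.50, 6.2, 4.94 and 3.15 CPM, from 20 to 55 counts per library, which was 12-fold lower (log2 fold change -3.58 ± 0.15, Q = 5.5e-23). Its libraries of day 6 had 28.6, 37.1, 35.9, 34.2 and 33.0 CPM and those of day 8 had 19.7, 26.9, 21.8, 16.8 and 23.9 CPM. The day 8 libraries lay below those of day 6 (-0.62 ± 0.13, Q = 0.0027), and the rise from day 8 to day 10, to 24.6 ± 2.49 CPM, was within the spread between subcultures (0.17, 95% interval -0.10 to 0.44). TRIB3 (chr20:362835-397559), a pseudokinase that binds ATF4 and DDIT3 and holds back their activity, had 148, 133, 127, 141 and 124 CPM on day 0 and 23.4, 25.4, 23.9, 26.1 and 23.6 CPM on day 2 (5.50-fold lower, Q = 7.4e-24). Of the genes with a day 2 low, TRIB3 rose least from day 2 to day 4, to 30.1 ± 2.38 CPM (0.30 ± 0.11, Q = 0.028), and this call was lost without replicate 1 or 5 of day 2 or replicate 1 or 3 of day 4, with Q from 0.052 to 0.058. TRIB3 reached 54.7 ± 7.65 CPM on day 6, fell to 35 ± 6.19 CPM on day 8 (-0.64 ± 0.098, Q = 2.6e-05) and was at 50.1 ± 6.86 CPM on day 10 (0.52 ± 0.099 against day 8, Q = 0.00026). No library of day 8 reached the lowest library of day 6 or of day 10 for TRIB3.

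CHAC1 (chr15:40952962-40956512), an enzyme that degrades glutathione, had the deepest low and the fullest return. Its libraries had 17.4, 13.6, 13.9, 14.6 and 13.9 CPM on day 0 and 0.287, 0.107, 0.901, 0.463 and 0.629 CPM on day 2. The day 2 values rest on 2, 1, 8, 3 and 4 counts, 18 in all, and the log2 fold change of -4.90 has a 95% interval from -5.40 to -4.41. By day 4 CHAC1 had 54 to 68 counts per library and 9.53 ± 0.571 CPM, a 19.4-fold rise over day 2 (Q = 2.4e-16). On day 6 it had 20.6, 24.9, 19.7, 22.2 and 23.6 CPM, above every library of day 0 (log2 fold change 0.59 ± 0.15, Q = 0.0013). The 5 libraries of day 8, at 14.1, 18.1, 15.9, 14.7 and 18.2 CPM, all lay below those of day 6, but the difference of -0.45 ± 0.14 did not pass the threshold (Q = 0.085). It passed the threshold with DESeq2 (Q = 0.0088), in a fit of those 2 days alone (Q = 0.047) and with all biotype entries summed (Q = 0.037). On days 8 and 10 CHAC1 overlapped day 0 and was not called, except with all biotype entries summed on day 10 (0.34, Q = 0.033). CHAC1 has no entries of other biotypes, so summing changed its results only through the counts of other genes.

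SESN2 (chr1:28259518-28282491), a sestrin that lowers mTORC1 activity when leucine is short, had 272, 240, 260, 233 and 232 CPM on day 0 and 15.6, 18.4, 13.4, 15.4 and 12.1 CPM on day 2. It was 16.4-fold lower on day 2 (log2 fold change -4.03 ± 0.12, Q = 6.6e-28), and it reached 131 ± 11.3 CPM, 52.9% of its day 0 mean, on day 6. On day 8 its libraries had 82.2, 101, 73.0, 71.6 and 85.8 CPM, all below the lowest of day 6 (-0.66 ± 0.10, Q = 2.6e-05), and on day 10 they had 140, 136, 95.8, 105 and 113 CPM (0.51 ± 0.10 against day 8, Q = 0.00046), with overlap in 1 pair of neighbouring values. DDIT4 (chr10:72273919-72276036), which encodes REDD1, another protein that lowers mTORC1 activity, took a different course. It had 203, 180, 192, 213 and 193 CPM on day 0 and 182, 187, 256, 213 and 169 CPM on day 2, with no detectable difference (0.04, 95% interval -0.27 to 0.35). Its higher level on day 1 (0.37 ± 0.15, Q = 0.040) overlapped day 0 and was not called with RLE size factors, filterByExpr or DESeq2, nor when replicate 1, 2, 3 or 5 of either day was left out, with Q between 0.053 and 0.14. On day 4 DDIT4 was uneven, with 287, 190, 457, 390 and 440 CPM. It was called higher than on day 0 (0.85 ± 0.15, Q = 1.5e-05), but its day 4 libraries overlapped those of days 0, 2 and 6. DDIT4 then rose to 722, 757, 585, 440 and 543 CPM on day 6, 3.11-fold above day 0 and without overlap (Q = 1.3e-11). It dipped to 371, 406, 378, 253 and 381 CPM on day 8 (-0.77 ± 0.15, Q = 0.0011) and stood at 502 ± 30.8 CPM on day 10.

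**Figure D1:**
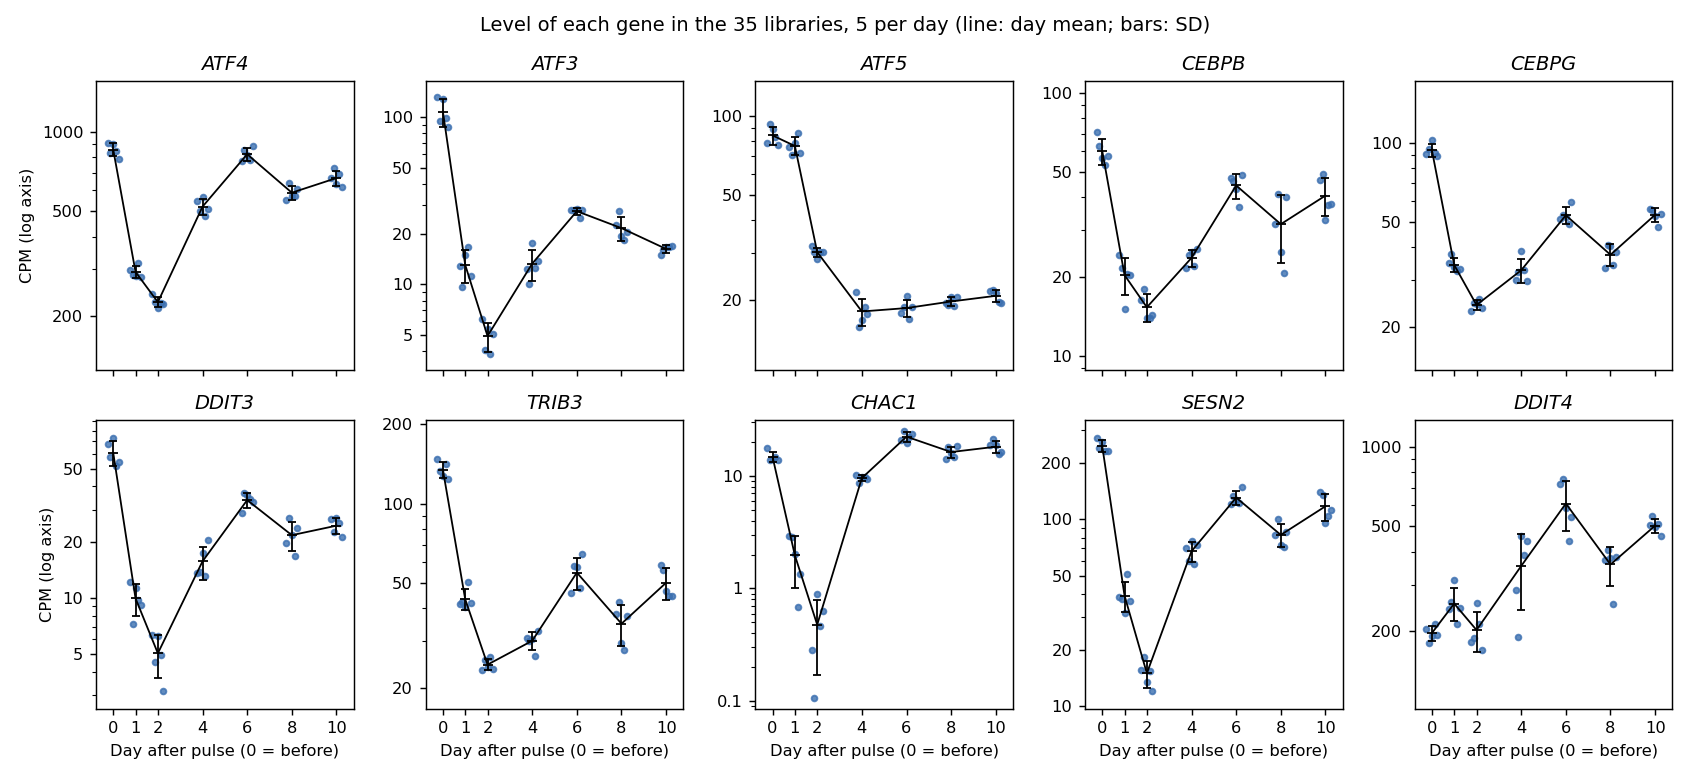
Level of each of the 10 genes in CPM on a log axis (vertical) against the day after the pulse (horizontal). Points are libraries, 5 per day, lines join day means and bars are SD. ATF4 fell from a mean of 856 CPM to 225 CPM on day 2 and was at 821 CPM on day 6, ATF5 stayed at 18.0 to 20.7 CPM from day 4, and DDIT4 peaked at 610 CPM on day 6.

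Against day 0, 8 of the 10 genes were lower on day 1, where 27.3% of all 17999 entries were lower, and DDIT4 alone was higher, where 25.4% were higher. On day 2, 9 genes were lower (24.4% of all entries) and none was higher (23.2%). On day 4, 9 were lower (20.1%) and 1, DDIT4, was higher (19%), with overlap between its libraries and those of day 0. On day 6, 7 were lower (17%) and 2, CHAC1 and DDIT4, were higher (17.5%). On days 8 and 10, 8 genes were lower than on day 0, with 18.6% and 15.8% of all entries lower and with DDIT4 higher on both days (18.2% and 16.1% of all entries higher). The median log2 fold change over the 10 genes was -1.60 on day 1 and -2.22 on day 2, while the median over all entries was -0.06 and -0.04. When a fold above 2 was asked for as well, 8, 9, 7, 3, 6 and 5 of the 10 were lower on days 1, 2, 4, 6, 8 and 10, beside 13.2%, 8.94%, 5.29%, 3.52%, 4.58% and 3.52% of all entries. All 9 genes called lower on day 2 had no overlap between the libraries of the 2 days, which was the case for 18.2% of all entries.

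**Figure D2:**
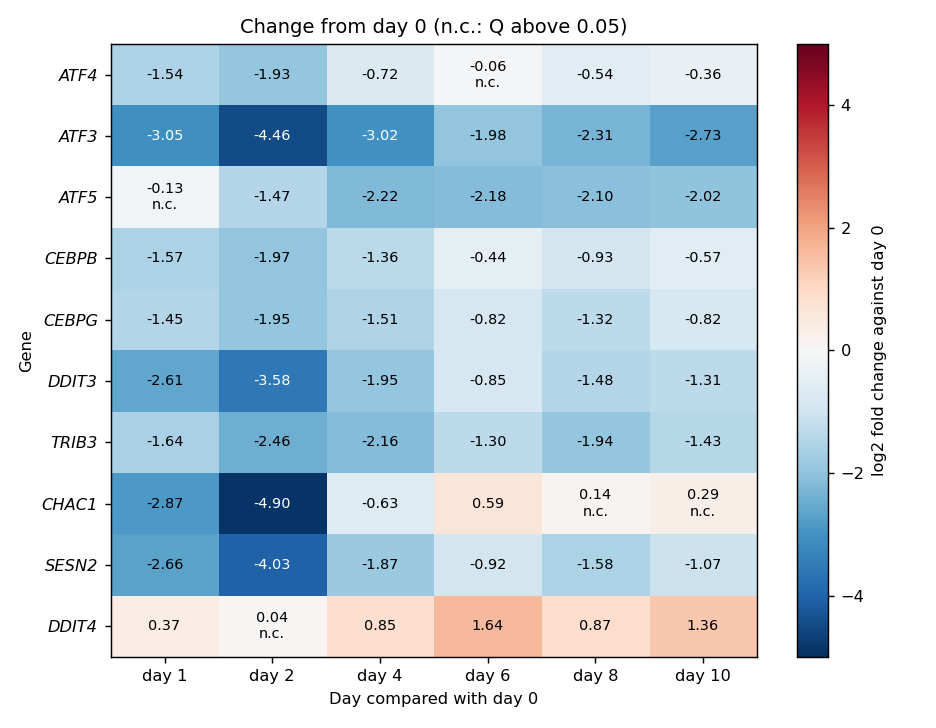
Heatmap of the log2 fold change against day 0 for the 10 genes (rows) on the 6 later days (columns), in which blue is lower, red is higher and n.c. marks a difference with Q above 0.05. ATF3, CHAC1 and SESN2 were lowest on day 2, with -4.46, -4.90 and -4.03, and DDIT4 was higher by 1.64 on day 6.

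The shape of the course was compared between neighbouring days. The day 2 low and the day 8 dip of these genes were known from these data beforehand. The calls and counts around them therefore describe the course and are no independent test of it. From day 1 to day 2, 9 genes fell further (19.4% of all entries fell), by between 0.38 (ATF4) and 2.04 (CHAC1) on the log2 scale, and DDIT4 did not pass the threshold (-0.33, Q = 0.085) except in a fit of those 2 days alone, with all biotype entries summed, or without replicate 3 of day 2 (Q from 0.0087 to 0.026). CEBPB was the least certain of the 9, with -0.40 and Q = 0.029, and was not called without replicate 1 or 2 of day 1 or replicate 3, 4 or 5 of day 2 (Q from 0.057 to 0.098). The libraries of the 2 days overlapped for CEBPB and also for CHAC1. The CHAC1 step rests on 62 counts over the 5 libraries of day 1 and 18 over those of day 2. From day 2 to day 4, 9 genes rose (13.9% of all entries rose) and ATF5 fell (16.7% fell). From day 4 to day 6, all but ATF5 rose again (9 genes, where 6.09% of all entries rose), by between 0.66 (ATF4) and 1.22 (CHAC1). From day 6 to day 8, 7 genes fell (1.53% of all entries fell), namely ATF4, CEBPB, CEBPG, DDIT3, TRIB3, SESN2 and DDIT4, by between 0.48 (ATF4) and 0.77 (DDIT4). Without overlap and lower on day 8 were 7 genes as well, with CHAC1 in place of CEBPB, where 1.96% of all entries were so. From day 8 to day 10, 5 genes rose (5.08% of all entries rose), by 0.18 for ATF4, 0.49 for DDIT4, 0.50 for CEBPG, 0.51 for SESN2 and 0.52 for TRIB3, and ATF3 fell (4.97% fell). These counts were less stable than the others: without replicate 2 of day 10 only 3 of the 6 calls of day 10 against day 8 were left, and the rise of ATF4 (0.15, Q = 0.081) and of DDIT4 (0.46, Q = 0.062) was not called. Without replicate 1 of day 8, or without replicate 4 of day 10, 4 calls were left. The rise of ATF4 was also lost without replicate 3 of day 8 and in a fit of the 2 days alone (Q = 0.076), that of DDIT4 without replicate 4 of day 8 (0.39, Q = 0.11), and that of CEBPB (0.36, Q = 0.073) was gained without replicate 2 or 5 of day 8 or replicate 3 of day 10 (Q from 0.014 to 0.037). On day 10, 9 genes were above their day 2 level (16.5% of all entries higher) and ATF5 was below it (18.8% lower).

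To set the day 2 low and the day 8 dip side by side, each was compared with the mean of the days around it. Both were known from these data beforehand, so the comparisons describe their size and are no independent test that they exist. Day 2 was below the mean of days 1 and 4 in all 10 genes (12.9% of all entries lower), and day 8 was below the mean of days 6 and 10 in 7 genes (2.81% lower). A value below that mean need not be a trough. DDIT4 on day 2 was not detectably different from day 0 (0.04) and not called against day 1 (-0.33, Q = 0.085). Likewise, the rise from day 8 to day 10 was not called for DDIT3 (0.17, Q = 0.55) or CEBPB (0.36, Q = 0.073). The genes with the deepest day 2 low were CHAC1 (-3.16 ± 0.27), SESN2 (-1.76 ± 0.12), ATF3 (-1.43 ± 0.15) and DDIT3 (-1.30 ± 0.15), and ATF5, whose level fell through that day, had the shallowest (-0.30 ± 0.064). The day 8 dip was more even in size. It ran from -0.63 ± 0.13 (DDIT4), -0.58 ± 0.090 (SESN2), -0.58 ± 0.087 (TRIB3) and -0.50 ± 0.062 (CEBPG) to -0.43 ± 0.12 (CEBPB), -0.40 ± 0.12 (DDIT3) and -0.33 ± 0.047 (ATF4). CHAC1, deepest on day 2, had a dip of -0.30 with an interval from -0.56 to -0.05 that did not pass the threshold (Q = 0.18). ATF3 (0.04, interval -0.19 to 0.28) and ATF5 (0.00, interval -0.14 to 0.15) showed no detectable dip. For CEBPG and TRIB3 the low and the dip were of like size (-0.47 and -0.50, -0.56 and -0.58). The dip of CEBPB and of DDIT3 depended on single libraries: without replicate 4 of day 8 it was -0.30 (Q = 0.13) and -0.30 (Q = 0.17), and without replicate 3 of day 8 it was -0.35 (Q = 0.095) and -0.39 (Q = 0.070), which left 5 called genes in each case. DDIT3 was also not called without replicate 1 of day 8, replicate 2 of day 6 or replicate 1 or 3 of day 10 (Q from 0.052 to 0.086), and CEBPB not in a fit of the 3 days alone (Q = 0.064). Cell density was set anew on days 6 and 8, and its part in the dip was not tested.

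**Figure D3:**
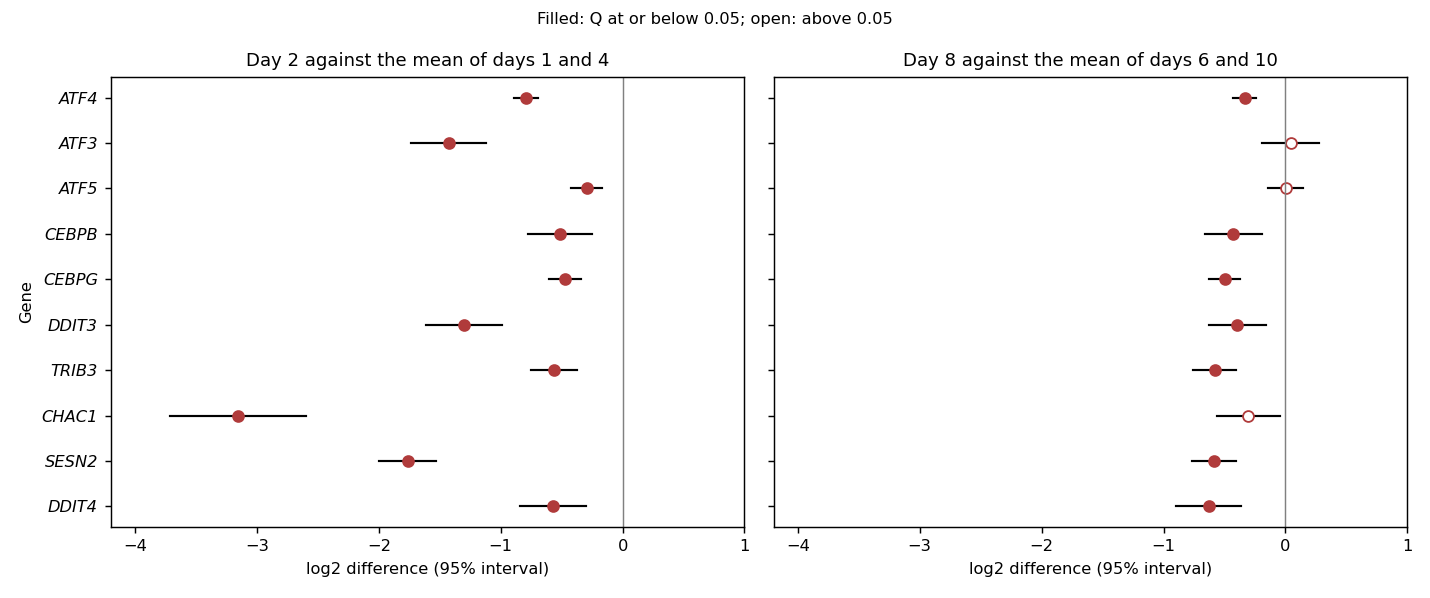
Log2 difference (horizontal) with its 95% interval for each gene, on the left for day 2 against the mean of days 1 and 4 and on the right for day 8 against the mean of days 6 and 10. Filled points have Q at or below 0.05. The left panel spreads from -3.16 (CHAC1) to -0.30 (ATF5), and the right panel from -0.63 (DDIT4) to 0.04 (ATF3).

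The level of each gene relative to ATF4 was taken within each library, as the difference of log2 CPM with a prior count of 2, and is given without a test. ATF3, DDIT3, SESN2 and CHAC1 fell by more than ATF4. Their ratio to ATF4 was lower than on day 0 by 1.48, 1.04, 1.13 and 1.30 on day 1 and by 2.45, 1.62, 2.10 and 2.42 on day 2 on the log2 scale, with all 5 libraries of both days below all of day 0. For CHAC1 the prior count makes this difference smaller at its low counts. CEBPB and CEBPG kept nearly the same ratio to ATF4 on days 1 and 2, with changes of -0.02 and 0.10 on day 1 and of -0.03 and -0.02 on day 2. From day 4, when ATF4 had begun to rise, all 5 libraries of both genes were below day 0 on days 4 and 6. TRIB3 was 0.09 lower on day 1 and 0.52 lower on day 2, and it stood 1.07 to 1.43 below from day 4 to day 10. CHAC1 crossed over, from 2.42 below on day 2 to 0.64, 0.68 and 0.65 above on days 6, 8 and 10, with all 5 libraries above day 0. DDIT4 stood 1.39 to 1.95 above on every later day, and ATF5 moved from 1.41 above on day 1 to 2.10 below on day 6. On day 8 against day 6 ATF4 itself fell by 0.48, and the change of the ratio from day 0 was -0.78 and -0.93 for DDIT3, -0.86 and -1.04 for SESN2 and -0.76 and -0.77 for CEBPG on these 2 days.

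**Figure D4:**
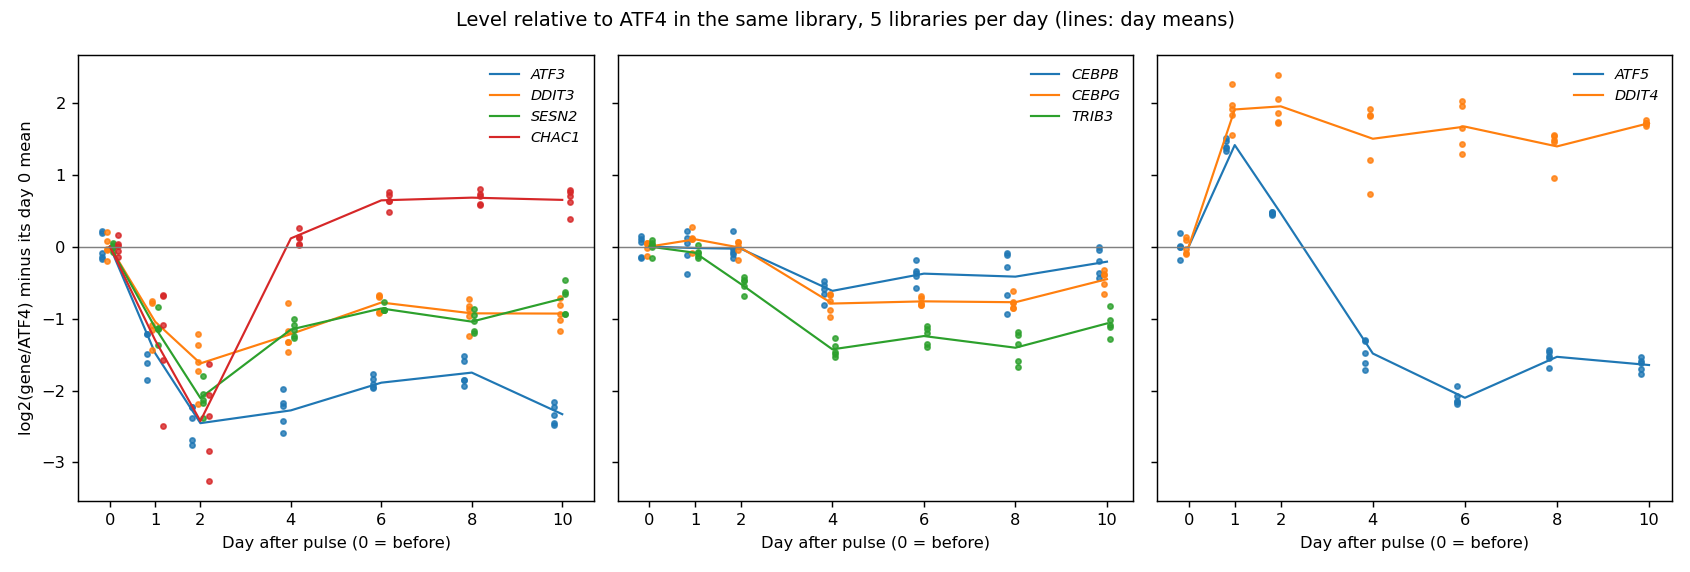
Log2 ratio of each gene to ATF4 in the same library minus its mean on day 0 (vertical) against the day after the pulse (horizontal), with 5 libraries per day as points and day means as lines. ATF3 was 2.45 below on day 2, CHAC1 was 0.64 above on day 6 and DDIT4 was above 0 on every later day.

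Levels were compared between genes per kilobase of the GENCODE transcript. On day 0 ATF4 led with 603 CPM per kb, followed by DDIT4 with 112 (SD 7.26) and SESN2 with 71.5 CPM per kb, and CHAC1 was last with 9.67 CPM per kb. On day 2 ATF4 (159 CPM per kb) and DDIT4 (116 CPM per kb) still led, while SESN2 had moved from place 3 to place 8 (4.34 CPM per kb) and ATF5 from place 7 to place 3 (15.1 CPM per kb). On day 6 SESN2 was at place 3 again with 37.8 CPM per kb, next to DDIT3 with 37.4 CPM per kb, which did not differ beyond their spread, and ATF5 was last.

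Other genes taken here as ATF4 targets were counted as a list of 36, all measured. On day 1, 30 of them were lower (27.3% of all entries) and 3 higher (25.4%), with a median log2 fold change of -1.32, and on day 2, 31 were lower (24.4%) and 1 higher (23.2%), with a median of -1.55. ASNS, asparagine synthetase, had 622 ± 25 CPM before the drug, 165 ± 6.9 CPM on day 1 and 86.9 ± 5.5 CPM on day 2, a log2 fold change of -2.84. It was at 341 ± 33 CPM on day 6, 193 ± 20 CPM on day 8 and 382 ± 22 CPM on day 10, so its day 8 dip of -0.82 and its rise of 0.98 to day 10 were both larger than those of ATF4. The lowest fitted value of the list was that of GDF15, a secreted stress cytokine, with 155 counts over the 5 libraries of day 0, none on day 1 and 2 on day 2. TXNIP, a thioredoxin inhibitor that glucose is known to induce, was the one listed gene called higher on day 2 (log2 fold change 1.73, with a mean of 1199 CPM). On day 8, 28 of the 36 were below day 6 (1.53% of all entries) and 1 above (1.03%), with a median of -0.48, and CTH, an enzyme of cysteine synthesis, fell most among those called (-0.93 ± 0.14, Q = 2.1e-05), while ALDH18A1, an enzyme of proline synthesis, was the one called higher (0.18 ± 0.048, Q = 0.035). From day 8 to day 10, 29 of 36 rose (5.08% of all entries) and none fell (4.97%), with a median of 0.62. The median over all entries was 0.00 in both of these comparisons.

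A list of 14 measured genes upstream of ATF4 held the kinases, subunits of eIF2 and eIF2B, and GCN1 and IMPACT, which regulate the kinase EIF2AK4. On day 2, 5 of the 14 were higher (23.2% of all entries) and 6 lower (24.4%), with a median of -0.16. EIF2AK4, the kinase GCN2 that senses uncharged tRNA, had 255 ± 9.6 CPM before the drug, 88.0 ± 3.8 CPM on day 1 and 93.4 ± 8.2 CPM on day 2 (log2 fold change -1.45 ± 0.058, Q = 1.1e-23), the lowest value of the list. EIF2B5, a subunit of the exchange factor of eIF2, was highest with 1.15 ± 0.099 (Q = 4.1e-13). On day 8 EIF2AK4 was not detectably below day 6 (-0.12), and 2 of the 14, EIF2S2 (-0.29) and EIF2S3 (-0.18), both subunits of eIF2, were lower (1.53% of all entries). PPP1R15A, the inducible subunit that directs a phosphatase to eIF2, had 81.0 ± 7.1 CPM on day 0, 8.16 ± 1.1 CPM on day 2 (-3.32), 31.0 ± 3.6 CPM on day 6 and 18.9 ± 2.5 CPM on day 8 (-0.71 against day 6). Its constitutive relative PPP1R15B fell by 1.42 on day 2 and had no call on day 8 (-0.15).

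Of 24 measured paralogs of the 10 genes, 6 were higher on day 2 (23.2% of all entries) and 9 lower (24.4%), with a median of -0.03. FOS, an immediate-early bZIP factor, was lowest (-4.11 ± 0.29), and CHAC2, which also degrades glutathione, was highest, rising from 5.11 ± 1.6 CPM to 17.8 ± 2.8 CPM (1.80 ± 0.18, Q = 1.4e-11) on the day on which CHAC1 was at its low. On day 8 no paralog was lower than on day 6 (1.53% of all entries), and TRIB1, a pseudokinase related to TRIB3, was higher by 0.33 ± 0.051 (Q = 3.5e-05) while TRIB3 fell. In the ATF6 and XBP1 arms of the unfolded protein response, 14 of 18 genes were lower on day 2 (24.4% of all entries) and 2 were higher (23.2%), with a median of -0.47. SEL1L, a part of the complex that clears misfolded proteins from the endoplasmic reticulum, fell most (-2.0 ± 0.060), and SDF2L1, an endoplasmic reticulum cochaperone, was the highest of those called (0.36 ± 0.12, Q = 0.011). Of these 18, 10 were lower on day 8 than on day 6 (1.53% of all entries), from -0.59 for ERN1, the sensor IRE1, to -0.23 for HSPA5, the chaperone BiP, and 14 rose to day 10 (5.08%). Among 6 measured targets of DDIT3 and cell death genes, 5 were lower on day 2 (24.4% of all entries), from -4.56 for BBC3, which encodes PUMA, to -1.18 for BCL2L11, which encodes BIM, and 2 were lower on day 8 than on day 6 (1.53%), PMAIP1 (-0.41) and BCL2 (-0.40).

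**Figure D5:**
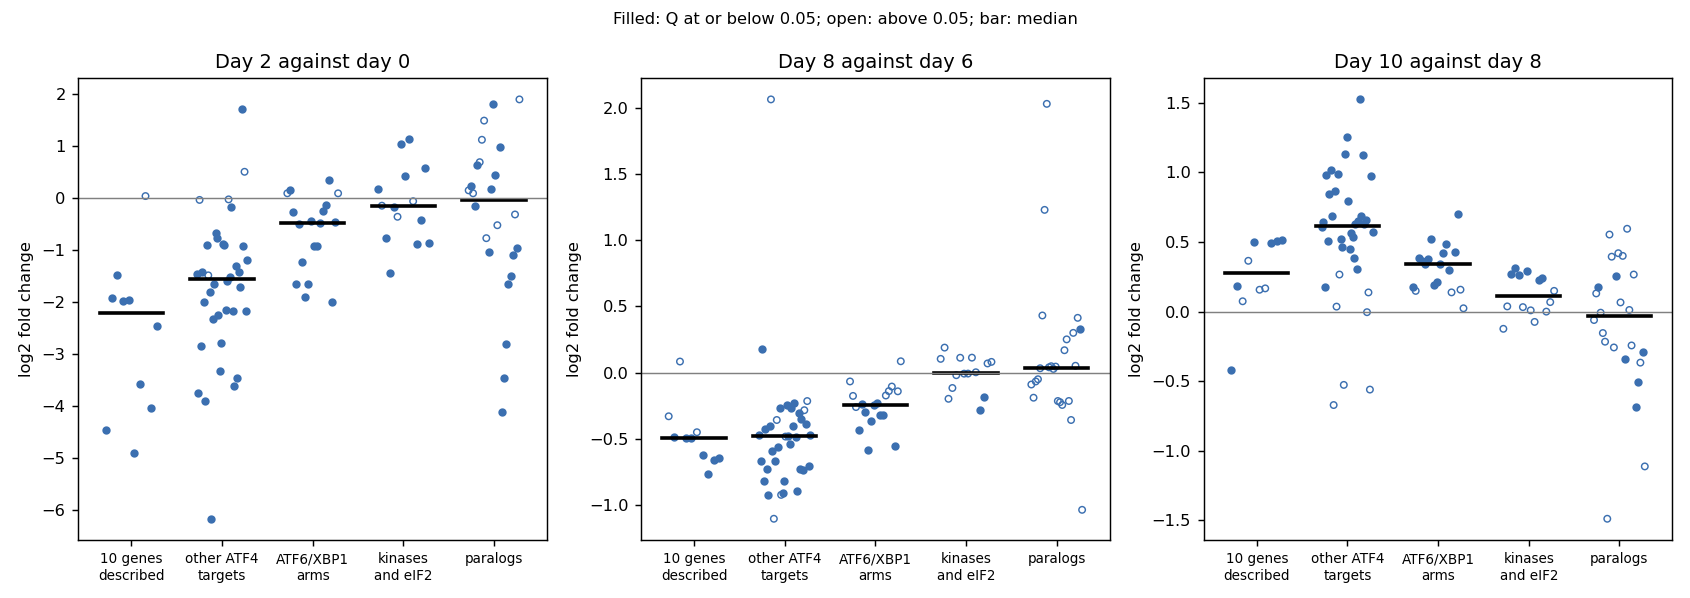
Log2 fold change (vertical) of the 10 genes and of 4 gene lists (horizontal) on day 2 against day 0, day 8 against day 6 and day 10 against day 8. Each point is a gene, filled where Q was at or below 0.05, and bars are medians. The other ATF4 targets had medians of -1.55, -0.48 and 0.62, and the genes upstream of ATF4 (kinases and eIF2) of -0.16, 0.00 and 0.11.

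The genes with the most similar course were found by Pearson's r of log2 CPM over the 35 libraries, as a description, since the libraries share days. Closest to ATF4 were HLA-E (0.969), WDR45 (0.967), NR1D2 (0.966), ABCG1 (0.966) and TSC22D3 (0.965). All 5 were lower on day 2 than on day 0, by 0.98 (WDR45) to 2.50 (TSC22D3) on the log2 scale, but none of them had a called dip on day 8 against day 6, with log2 fold changes of -0.15 (HLA-E) to -0.29 (ABCG1). ADM2, adrenomedullin 2, which is itself in the list of ATF4 targets, was closest to both SESN2 (0.989) and DDIT3 (0.962). CEBPG was closest to SARS (0.971) and TRIB3 to WARS (0.968), both aminoacyl-tRNA synthetases, and CEBPB was closest to ASS1 (0.955), which encodes argininosuccinate synthase. ATF3 was closest to FOSL2 (0.967), ATF5 to EZR (0.979), CHAC1 to CALCOCO1 (0.967) and DDIT4 to NR1D1 (0.887), the lowest of these values.

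Counts could also be divided between entries of the same gene. Only ATF3 and DDIT4 had entries of other biotypes, and the protein-coding entry held 84.1% to 93.7% of the counts of ATF3 and 93.7% to 96.6% of those of DDIT4 on each day. The 3 pseudogene entries of ATF4 had at most 2 counts in any library. ATF5 overlaps exons of NUP62 and IL4I1 on the other strand, CEBPB overlaps CEBPB-AS1 and DDIT3 overlaps MARS1 in the same way, and DDIT3 also overlaps an unnamed protein-coding gene annotated on its own strand. The library kit keeps the strand, but the strand setting of the counting is not given in the sources used here, so the levels of these 3 genes are less certain than those of the other 7.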

How the data were processed

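RNA of RPMI-8226 cells was sequenced in 35 libraries, 5 subcultures on each of 7 days. The authors deposited estimated counts per gene symbol and transcript biotype, made with Kallisto 0.44.0 on the GENCODE transcriptome (release 28, GRCh38) and summarized with tximport 1.9.8, and the deposited values are whole numbers without library size normalization. The strand setting of the counting is not given in the sources used here.

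Here, the 17999 of 19665 protein-coding entries that had at least 1 count somewhere were tested with edgeR 4.0.16 in R 4.3.3 (glmQLFit and glmQLFTest, TMM factors from 0.929 to 1.08, day as a factor over all libraries), with Benjamini-Hochberg adjustment over all 17999 entries of a comparison to give Q and a threshold of 0.05. Standard errors were derived from the F statistic, and 95% intervals from its degrees of freedom. The fit was tested on simulated data first. CPM were scaled to the TMM-normalized library size, and 0 deposited columns lacked a sample. Replicate libraries of a day differed by more than sampling noise (chi-square per degree of freedom from 2.52 to 9.64). Depth was 5373835 to 9307889 protein-coding counts per library, so at CHAC1's day 2 level a library holds few counts.

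The 10 genes, the lists and the comparisons around days 2 and 8 were chosen with earlier results of these data known. Besides the members, the text names the 5 genes most correlated with ATF4 and the first for each other member among 12340 entries passing filterByExpr, the called extremes of each list on day 2 against day 0 and day 8 against day 6, ASNS and EIF2AK4. PPP1R15B is named as an extreme of a list of 2. Of the listed symbols GCN1L1, ERO1L and IGJ were measured under newer names, and CEBPE and COL1A2 had no match. Gene positions came from GENCODE release 44 (GRCh38). Alternatives were RLE size factors, library size without factors, filterByExpr, DESeq2 1.42.0, replicate number as a block, the compared days alone, all biotypes summed, a fold above 2, and each library left out.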

Additional observations from a re-analysis of the deposited data

Results flagged for a closer look

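In 4 of 70 groups of 5 libraries (10 genes on 7 days) 1 library lay far from the other 4, by a gap of more than 0.71 of the group's range. Chance gives about 1 such group in 20. CHAC1 was at 17.4 CPM in replicate 1 of day 0, where the other libraries lay between 13.6 and 14.6 CPM. TRIB3 was at 50.4 CPM in replicate 4 of day 1, beside 40.5 to 42.3 CPM in the others. ATF3 was at 25 CPM in replicate 4 of day 6, just below the other libraries at 27.9 to 28.2 CPM. DDIT4 was at 253 CPM in replicate 4 of day 8, beside 371 to 406 CPM in the others. The dip of DDIT4 on day 8 against day 6 was still called without that library.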

How the results depend on the processing

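The number of the 10 genes called in a comparison changed by at most 1.5 times under RLE size factors, library size without factors, filterByExpr, DESeq2, the compared days alone and all biotypes summed. With a fold above 2 asked for as well, it was 4 on day 6 and 6 on day 10 against day 0, 4 for day 2 against day 1, 5 for day 4 against day 2, 3 for day 6 against day 4, 0 for day 8 against day 6, 0 for day 10 against day 8, 6 for day 8 against day 2, 4 for day 2 against the mean of days 1 and 4, and 0 for day 8 against the mean of days 6 and 10, since both dip and return were below 2-fold. With each library left out in turn, day 10 against day 8 had 3 to 6 calls (3 without replicate 2 of day 10). Of 2650 values of single genes under the alternatives, 2571 kept direction and side of the threshold, 51 lost a call, 18 gained one and 10, none of them called, changed sign. Such sign changes were seen for ATF5, ATF3 and DDIT4 only.

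By the study's methods 5 subcultures were used for RNA, and the labels do not say whether a replicate number marks the same subculture on each day. A check for pairing gave no clear answer. The correlation of deviations between same-numbered libraries had a median of 0.00226, from -0.121 to 0.136, beside -0.000797 for different numbers. However, 14 of 35 libraries correlated best with their own number, where 7 would by number alone. The main fit treated the libraries as unpaired. With the replicate number as a block, day 10 against day 8 had 7 calls in place of 6, with CEBPB added (0.37, Q = 0.015), and no other call on the 10 genes changed.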
